A study of Mus musculus with 8 samples.

Results

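The Toll-like receptors measured here were the 10 receptor genes Tlr1 to Tlr9 and Tlr13, out of 55536 counted genes. They were taken by gene symbol, joined to the counts by Ensembl identifier, and divided by location into 5 receptors of the endosome (Tlr3, Tlr7, Tlr8, Tlr9 and Tlr13) and 5 of the cell surface (Tlr1, Tlr2, Tlr4, Tlr5 and Tlr6). All 10 passed the filter on low counts, as did 15998 genes in all. The RNA came from whole liver tumors of male C3H mice, 6 to 8 weeks old by the labels (the study's methods give a younger age), grown from implanted HCA-1 cells, a mouse hepatocellular carcinoma line. On day 17 after implantation each mouse received a single intravenous dose of saline (4 tumors, replicates 1, 3, 4 and 5) or PFSUV-IMQ (4 tumors, replicates 1, 2, 3 and 4), and tumors were taken 3 h later. PFSUV-IMQ is the Tlr7 agonist imiquimod carried in phospholipid-free small unilamellar vesicles. No tumor of an empty-vesicle or free-drug group was sequenced in the samples analysed here, so the contributions of vesicle and drug cannot be told apart. All tumors derive from 1 cell line and hold tumor and host cells together.

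Toll-like receptors recognize conserved microbial products. Receptors of the cell surface bind mainly lipids, lipoproteins and flagellin, whereas receptors of the endosome bind nucleic acids and need the chaperone Unc93b1 to reach that compartment. Nearly all signal through the adaptor Myd88 to NF-kB and, from endosomes, to interferon regulatory factors, while Tlr3 signals through Ticam1 (TRIF), which Tlr4 also uses. In liver they are found on Kupffer cells, infiltrating myeloid cells, dendritic cells and, for some members, on hepatocytes and endothelium.

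After PFSUV-IMQ, Tlr3 was the receptor gene called higher, with a 6.93-fold higher level than in saline tumors. Tlr2 lay 3.57-fold and Tlr9 2.95-fold higher without passing the test over all genes, and Tlr7, the receptor for imiquimod itself, did not pass it either. The levels of Tlr1, Tlr4, Tlr5, Tlr6, Tlr8 and Tlr13 likewise did not pass. A gene counted as called when edgeR's quasi-likelihood test gave a Benjamini-Hochberg adjusted p under 0.05 and its level differed by more than 1 on the log2 scale. By this rule 1 of 10 receptors was called higher and 0 were called lower, against 2.26% of all tested genes called higher, 0.200% called lower and 2.46% called in either direction. In 6 of 10 receptors the log2 fold change was above 0, against 46.0% of all tested genes. At an unadjusted p under 0.05 in edgeR, 3 receptors were higher (Tlr2, Tlr3 and Tlr9) and 0 lower, beside 2078 genes of 15998 in either direction. By adjusted p, DESeq2's Wald test called 3 receptors higher, the same genes, and 0 lower, beside 619 of all genes higher and 133 lower. At an unadjusted p under 0.05 it also had Tlr5 lower (log2 fold change −0.76). With so few members, 1 call is a single gene and not a property of the family.

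Total counts were 16883911 to 27687756 per saline tumor and 17008151 to 18527613 per PFSUV-IMQ tumor. A floor of 3 counts lay between 0.108 and 0.178 CPM, a level that covers counting error only, and the receptors had 22 to 4400 counts per tumor, so none was near it. Hepatocyte marker genes were abundant in every tumor. The 5 genes of the oncofetal liver list summed to 7.06 to 10.8 normalized CPM in saline and 5.17 to 10.7 in PFSUV-IMQ tumors. Of these genes 3 passed the filter, whereas Igf2 and Dlk1 had at most 1 and 2 counts. PFSUV-IMQ replicate 2 stood apart, being the highest of its group for 88.4% of the genes called higher and 34.8% of all tested genes, and the highest of all 8 tumors for 20.2% of tested genes. It was the highest of its group for 8 of 10 receptors, the exceptions being Tlr9 and Tlr4, and the highest of all 8 tumors for 6, so results are given with and without it where they differ. The labels give the tumors as separate samples of each group, and p-values measure the spread between these tumors.

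DNA upstream of a RefSeq transcript start is shown for the 3 receptors with the largest differences and for Tlr6. A window of Tlr6 held matches to the interferon-stimulated response element motif. The stretches of Tlr3 and Tlr6 lie inside the genes as GENCODE draws them, downstream of the gene start given below, because RefSeq starts a transcript there. The sequences are from RefSeq (GRCm38.p6), which gave windows of 250 bases for 8 of 10 receptors, 2 each for Tlr1 and Tlr6 and 1 for the others. Those of Tlr4 and Tlr7 were not matched. They are written 5′ to 3′ on the strand of the gene, and for Tlr3 and Tlr2 cover only 30 and 91 bases outside annotated exons or beside the match. Capitals mark matches to the kB (GGGA and TTCC with any 2 bases between), AP-1 (TGANTCA), interferon-stimulated (GAAA and GAAA with any 2 bases between) or GAS (TTCNNNGAA) motif on either strand, where N is any base. The Tlr2 stretch held no match to these exact letters.
Tlr3, chr8:45410572-45410601 (minus strand): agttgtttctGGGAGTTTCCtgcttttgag
Tlr2, chr3:83841768-83841858 (minus strand): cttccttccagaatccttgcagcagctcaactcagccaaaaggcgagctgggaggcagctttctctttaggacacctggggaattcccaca
Tlr9, chr9:106222348-106222597 (plus strand): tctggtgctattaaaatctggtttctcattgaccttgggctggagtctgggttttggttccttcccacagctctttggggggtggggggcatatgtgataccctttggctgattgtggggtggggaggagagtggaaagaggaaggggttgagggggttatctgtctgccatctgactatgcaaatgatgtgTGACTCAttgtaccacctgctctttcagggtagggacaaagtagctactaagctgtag
Tlr6, chr5:64959167-64959416 (minus strand): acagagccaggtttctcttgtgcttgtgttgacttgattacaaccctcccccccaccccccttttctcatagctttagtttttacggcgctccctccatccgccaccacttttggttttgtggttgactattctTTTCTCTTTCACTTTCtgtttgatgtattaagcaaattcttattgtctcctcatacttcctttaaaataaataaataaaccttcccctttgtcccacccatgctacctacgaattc

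Both strands were searched, and the share of all 32841 RefSeq promoter windows with each motif was counted beside it. The kB letters searched, a spelling of the sites bound by NF-kB, were found in Tlr3 alone, 211 bases before its RefSeq start, and in 1.21% of all windows. Looser kB spellings were not searched, so other windows, that of Tlr2 among them, may hold a kB site. The interferon-stimulated motif was found only in Tlr6, as overlapping matches 116 and 110 bases before the RefSeq start within the gene, and in 2.98% of all windows. The other Tlr6 window, at the start of the gene (chromosome 5, 64960049 to 64960298), held none. The AP-1 motif was found in Tlr9, 58 bases before its start, and in 6.75% of windows, and the GAS motif in Tlr1 and Tlr8 and in 7.02% of windows. The motif GAGGAA, the core bound by the myeloid factor PU.1, occurred in Tlr1, Tlr8, Tlr9 and Tlr13 and in 23.3% of windows. Tlr6 was not called, and the Tlr3 window held no match to the exact interferon-stimulated letters searched. Looser spellings of that motif were not searched either, so the Tlr3 window and others may hold one. A match is a description of letters and not a binding site.

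Tlr3 (ENSMUSG00000031639, chromosome 8, 45395665 to 45411080, minus strand, GRCm38) is the receptor for double-stranded RNA. Its normalized CPM (counts scaled to TMM-adjusted library sizes) were 31.8, 31.9, 25.9 and 14.4 in saline replicates 1, 3, 4 and 5. After PFSUV-IMQ they were 105, 307, 125 and 184 in replicates 1 to 4. The groups did not overlap, the lowest PFSUV-IMQ tumor lying above the highest saline tumor. In all, 6.00% of tested genes had every PFSUV-IMQ tumor above every saline tumor (9.28% counting either direction), and 2 of 10 receptors did. The mean rose from 26.0 ± 8.24 to 180 ± 91.0 (SD, n = 4 each), which was 2.79 (SE 0.39) as a log2 fold change, with an edgeR adjusted p of 0.00522. It was called in all 8 fits that left out 1 tumor, with log2 fold changes of 2.39 to 2.98, the smallest without PFSUV-IMQ replicate 2. By size of change it ranked 123 of the tested genes. The gene Gm45542 on the opposite strand overlaps 7.32% of its exon bases and had 0 counts in every tumor.

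**Figure D1:**
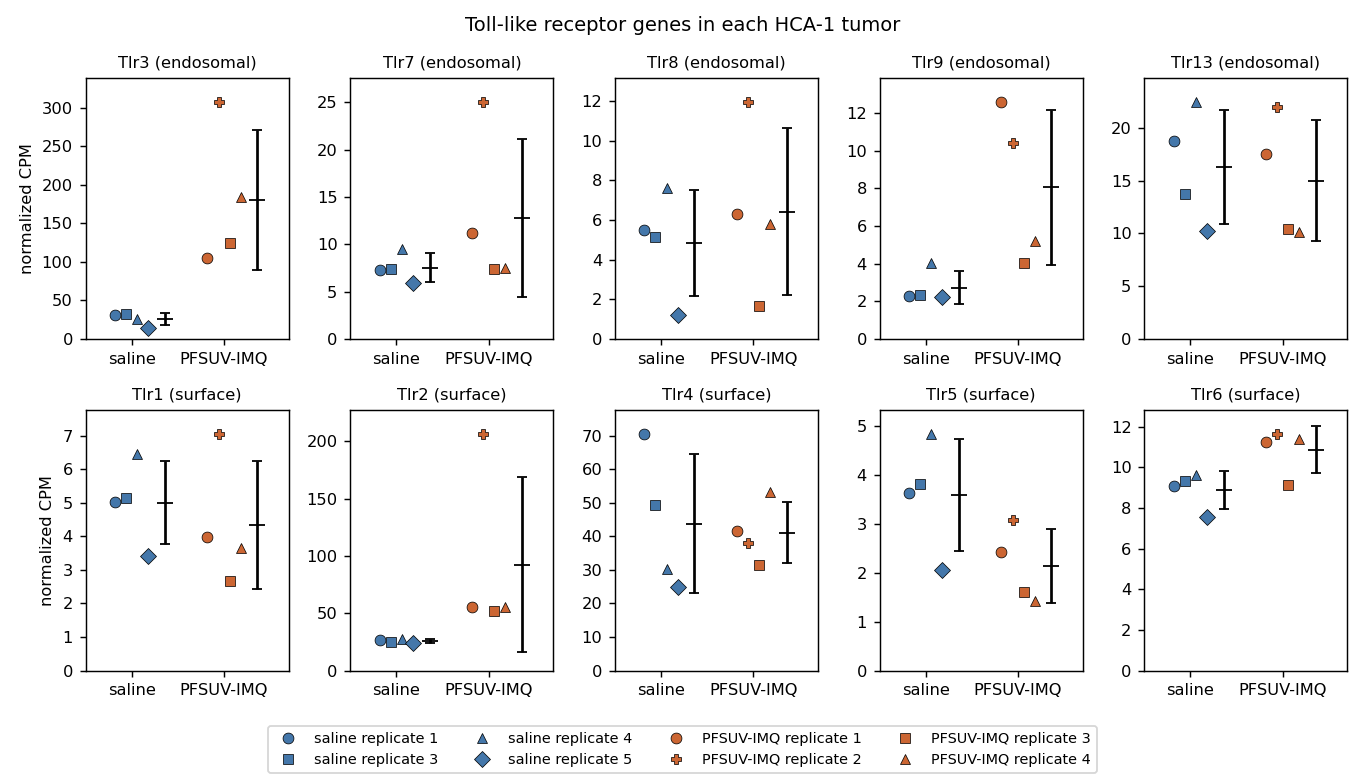
Normalized CPM of each receptor gene in each of 8 tumors, 1 panel per gene with its own axis from 0, points for single tumors and lines for mean ± SD of 4 saline and 4 PFSUV-IMQ tumors. Tlr3 sits at 105 to 307 after PFSUV-IMQ and at 14.4 to 31.9 after saline, and the Tlr2 value of 207 belongs to PFSUV-IMQ replicate 2.

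Tlr7 (ENSMUSG00000044583, chromosome X, 167304929 to 167330558, minus strand) is the receptor for single-stranded RNA and for imidazoquinolines such as imiquimod. Its normalized CPM were 7.33, 7.41, 9.54 and 5.92 in saline replicates 1, 3, 4 and 5. After PFSUV-IMQ they were 11.1, 25.0, 7.42 and 7.50 in replicates 1 to 4. Replicates 3 and 4 lay within the saline range, and replicate 2 was 3.34 times the median of the other PFSUV-IMQ tumors. The means were 7.55 ± 1.49 and 12.8 ± 8.35, a log2 fold change of 0.75 (SE 0.39) that did not pass the test (edgeR adjusted p = 0.492). Without PFSUV-IMQ replicate 2 it was 0.18 (SE 0.25, edgeR adjusted p = 0.799), and over all 8 fits with 1 tumor left out it was 0.18 to 0.95.

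Tlr9 (ENSMUSG00000045322, chromosome 9, 106222598 to 106226883, plus strand) is the receptor for DNA with unmethylated CpG dinucleotides. Its normalized CPM were 2.30, 2.32, 4.04 and 2.23 in saline replicates 1, 3, 4 and 5. After PFSUV-IMQ they were 12.6, 10.4, 4.01 and 5.18 in replicates 1 to 4. The groups overlapped by the margin between PFSUV-IMQ replicate 3 and saline replicate 4, and the highest tumor was PFSUV-IMQ replicate 1. The means were 2.72 ± 0.878 and 8.05 ± 4.11, a log2 fold change of 1.56 (SE 0.41) with an edgeR adjusted p of 0.0939. The gene was not called in any fit with 1 tumor left out (log2 fold change up to 1.81) but was called by DESeq2's Wald test (adjusted p = 0.00615) and edgeR's exact test (adjusted p = 0.0146).

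Tlr8 (ENSMUSG00000040522, chromosome X, 167242696 to 167264329, minus strand) senses RNA breakdown products and lies beside Tlr7. Its normalized CPM were 5.48, 5.13, 7.60 and 1.19 in saline tumors and 6.29, 11.9, 1.67 and 5.79 in PFSUV-IMQ tumors. The groups overlapped over most of their range (log2 fold change 0.40, SE 0.61, edgeR adjusted p = 0.869). Tlr13 (ENSMUSG00000033777, chromosome X, 106143204 to 106160493, plus strand), a receptor for bacterial ribosomal RNA, had 18.7, 13.7, 22.4 and 10.2 in saline and 17.5, 21.9, 10.4 and 10.1 in PFSUV-IMQ tumors. These groups also overlapped (log2 fold change −0.12, SE 0.33, edgeR adjusted p = 0.936).

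Among the surface receptors, Tlr2 (ENSMUSG00000027995, chromosome 3, 83836272 to 83841767, minus strand) pairs with Tlr1 or Tlr6 to bind bacterial lipoproteins. Its normalized CPM were 26.8, 25.1, 27.3 and 24.1 in saline replicates 1, 3, 4 and 5. After PFSUV-IMQ they were 55.1, 207, 51.5 and 55.5 in replicates 1 to 4. The groups did not overlap, and 3 of the 4 PFSUV-IMQ tumors lay close together, with replicate 2 far above them. The means were 25.8 ± 1.5 and 92.2 ± 76.4, a log2 fold change of 1.84 (SE 0.45) that missed the threshold (edgeR adjusted p = 0.0736). Without PFSUV-IMQ replicate 2 the log2 fold change was smaller, at 1.05 (SE 0.14), and the gene was called (edgeR adjusted p = 0.00453). It was also called by DESeq2's Wald test (adjusted p = 0.00218) and edgeR's exact test (adjusted p = 0.00329).

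The partners of Tlr2 were not called. Tlr1 (ENSMUSG00000044827, chromosome 5, 64924679 to 64933563, minus strand) had 5.02, 5.13, 6.44 and 3.42 normalized CPM in saline and 3.97, 7.06, 2.68 and 3.64 in PFSUV-IMQ tumors (log2 fold change −0.21, SE 0.34, edgeR adjusted p = 0.873). Tlr6 (ENSMUSG00000051498, chromosome 5, 64952031 to 64960097, minus strand) had 9.08, 9.35, 9.62 and 7.55 in saline and 11.3, 11.7, 9.15 and 11.4 in PFSUV-IMQ tumors (log2 fold change 0.29, SE 0.18, edgeR adjusted p = 0.588). Both pairs of groups overlapped, in Tlr6 through PFSUV-IMQ replicate 3 alone. The genes are neighbours of like sequence, sharing 15.3% of the 50-base words of Tlr1 and 12.6% of those of Tlr6 with each other, so reads within these stretches are of uncertain origin.

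Tlr4 (ENSMUSG00000039005, chromosome 4, 66827584 to 66930284, plus strand), the receptor for lipopolysaccharide, had 70.6, 49.4, 30.3 and 24.8 normalized CPM in saline and 41.5, 37.9, 31.6 and 53.3 in PFSUV-IMQ tumors. The PFSUV-IMQ values lay within the saline range (log2 fold change −0.09, SE 0.32, edgeR adjusted p = 0.952). Tlr5 (ENSMUSG00000079164, chromosome 1, 182954788 to 182976044, plus strand), the flagellin receptor, had 3.64, 3.83, 4.85 and 2.06 in saline and 2.43, 3.07, 1.62 and 1.43 in PFSUV-IMQ tumors. It had the most negative difference of the 10, with overlapping groups (log2 fold change −0.76, SE 0.36, edgeR adjusted p = 0.422).

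**Figure D2:**
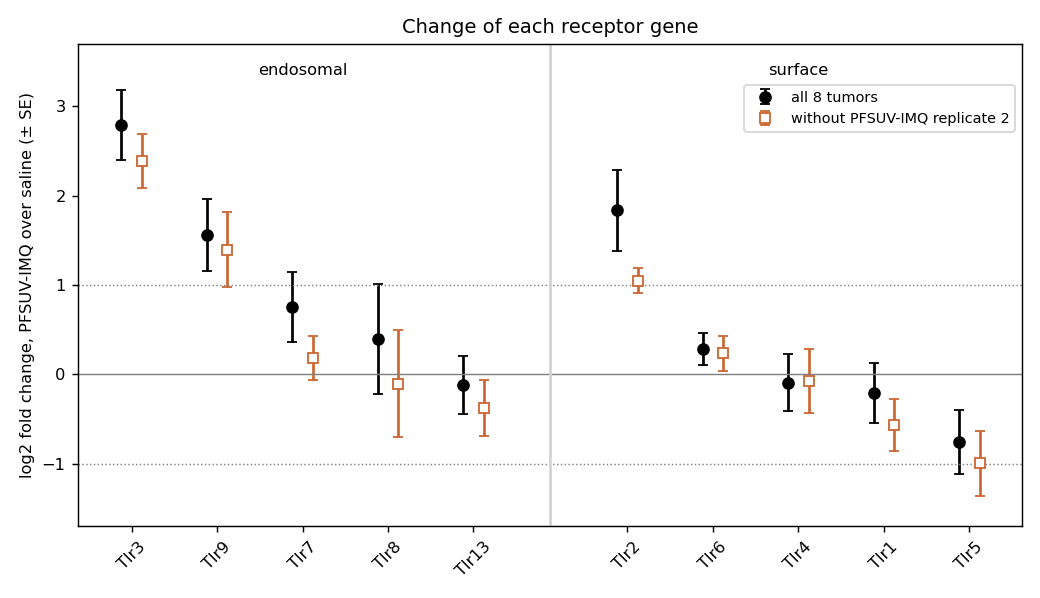
Log2 fold change (PFSUV-IMQ over saline) ± SE of each receptor from edgeR, from all 8 tumors and from 7 tumors without PFSUV-IMQ replicate 2. Tlr3 moves from 2.79 to 2.39, Tlr2 from 1.84 to 1.05 and Tlr7 from 0.75 to 0.18.

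Compared by class, the endosomal receptors had a median log2 fold change of 0.75, with 1 of 5 called higher, and the surface receptors −0.09, with 0 of 5 called. Over all tested genes the median was −0.03. Without Tlr3 the endosomal median was 0.58, and without Tlr2 the surface median was −0.15. The medians also turned on single tumors, the endosomal one being 0.18 without PFSUV-IMQ replicate 2 and the surface one 0.24 without saline replicate 1 and 0.01 without PFSUV-IMQ replicate 3. The mean log2 CPM of the endosomal receptors minus that of the surface receptors was −0.50, −0.51, −0.11 and −0.74 in saline replicates 1, 3, 4 and 5. In PFSUV-IMQ replicates 1 to 4 it was 0.53, 0.67, −0.000803 and 0.24. The groups did not overlap and differed by 0.82, a value that ranged from 0.72 to 0.94 with 1 tumor left out, and no p is given because the members were chosen with results known. This score was not computed without Tlr3, whose log2 fold change of 2.79 was the largest of its class. The difference depended on which receptors were included. With Tlr11 and Tlr12, which also reside in endosomes, counted among the endosomal receptors (chosen after seeing the data), it was 0.12, the groups overlapped, and the median log2 fold change of the 7 genes was 0.40.

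Tlr11 and Tlr12 sense profilin of protozoan parasites. Tlr11 was 4.75, 3.62, 7.60 and 4.24 normalized CPM in saline replicates 1, 3, 4 and 5 and 0.717, 1.05, 1.17 and 1.54 in PFSUV-IMQ replicates 1 to 4. Every PFSUV-IMQ tumor lay below every saline tumor, as for 3.28% of tested genes. Tlr11 fell by 2.17 on the log2 scale (SE 0.35, edgeR adjusted p = 0.0111) and was called lower in all 8 fits with 1 tumor left out. Tlr12 was at 6.72 ± 1.75 and 3.63 ± 1.44 and was not called (log2 fold change −0.88, edgeR adjusted p = 0.260). The 8 markers of conventional dendritic cells, a type known to express Tlr11 and Tlr12, summed to 108 to 160 normalized CPM in saline and 80.3 to 124 in PFSUV-IMQ tumors. Of these markers 7 had a log2 fold change below 0, with a median of −0.71, and 0 were called by edgeR, with Xcr1, Wdfy4 and Flt3 lower at an unadjusted p under 0.05. Their part in the Tlr11 result was not tested.

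Levels of different receptors were compared per kilobase of exon. In saline tumors the order from the highest was Tlr2, Tlr4, Tlr3, Tlr13, Tlr6, Tlr7, Tlr1, Tlr8, Tlr9 and Tlr5, from 8.56 ± 0.499 for Tlr2 to 0.751 for Tlr5 in normalized CPM per kilobase. Each of the 9 neighbouring pairs in this order overlapped across tumors. In PFSUV-IMQ tumors Tlr3 came first at 34.7 ± 17.5, followed by Tlr2 at 30.6 ± 25.3 and Tlr4 at 7.39, and Tlr5 was again the lowest at 0.446. Neighbours did not overlap in 3 pairs, Tlr2 above Tlr4, Tlr4 above Tlr13 and Tlr1 above Tlr5. Tlr3 moved from the third place to the first and Tlr9 from the ninth, at 0.783, to the seventh, at 2.31. Tlr7 was at 1.85 per kilobase in saline and 3.13 in PFSUV-IMQ tumors, below Tlr13 in both.

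**Figure D3:**
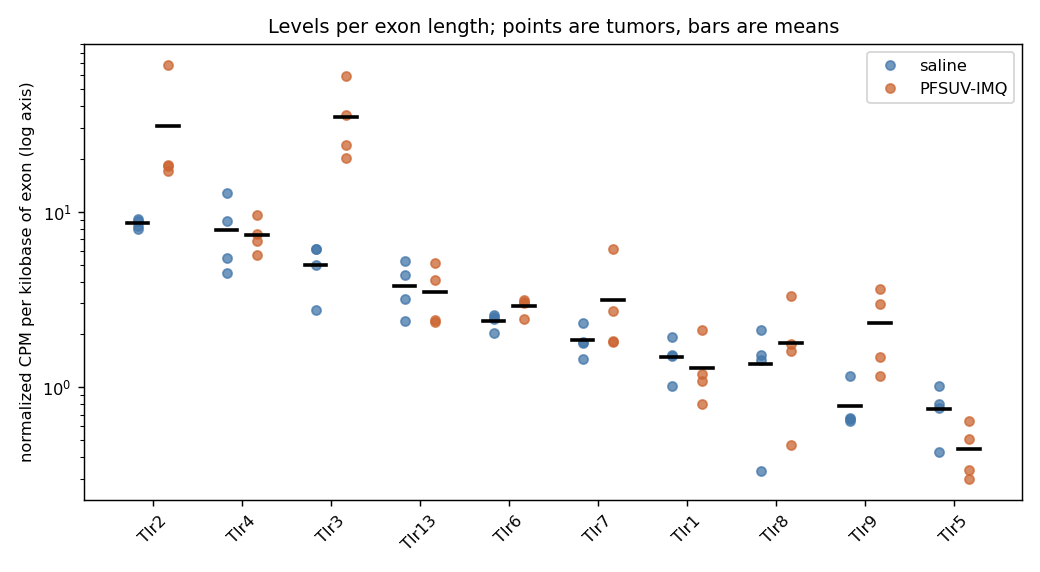
Normalized CPM per kilobase of exon for each receptor in each tumor, on a log axis, with saline and PFSUV-IMQ tumors side by side. In saline tumors means run from 8.56 for Tlr2 to 0.751 for Tlr5, and in PFSUV-IMQ tumors Tlr3 leads at 34.7.

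The other genes, called pathway genes here, were 84 genes in 10 lists arranged by role. The lists include RIG-I-like receptors and other nucleic acid sensors, which are not Toll-like receptor signalling genes. Of the 84 genes 80 were tested, 10 were called higher and 1, Tlr11, was called lower. Among the 10 called higher, 3 were RIG-I-like receptors and 2 were other nucleic acid sensors. Over all tested genes 2.26% were called higher and 0.200% lower. No gene was called among the 9 chaperones and trafficking factors, the 8 tested endosomal proteases and nucleases or the 8 co-receptors, whose median log2 fold changes were 0.03, 0.10 and −0.11. Unc93b1 was at 88.6 ± 15.3 normalized CPM in saline and 123 ± 36.8 in PFSUV-IMQ tumors (edgeR adjusted p = 0.444). Cd14, the co-receptor that delivers lipopolysaccharide to Tlr4, was at 85.0 ± 2.18 and 132 ± 26.1 and was not called (log2 fold change 0.63, edgeR adjusted p = 0.104). Its groups were apart, with PFSUV-IMQ above saline, as for 6.00% of tested genes.

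Among 17 tested adaptors and kinases the call was Myd88, at 30.3 ± 1.16 in saline and 71.7 ± 28.4 in PFSUV-IMQ tumors (log2 fold change 1.24, SE 0.24, edgeR adjusted p = 0.0287). That call was kept in 3 of 8 fits with 1 tumor left out. Ticam1, the adaptor of Tlr3, was at 21.8 ± 2.94 and 20.5 ± 5.76 and was not called (log2 fold change −0.09, edgeR adjusted p = 0.922). Of 8 transcription factors 7 had a log2 fold change above 0 and 1 was called higher. That gene, Irf7, the interferon regulatory factor downstream of Tlr7 and Tlr9, went from 67.8 ± 13.3 to 520.4 ± 219 (log2 fold change 2.94, edgeR adjusted p = 0.00121). Of 11 inhibitors 10 had a log2 fold change above 0 and 2 were called higher. The called genes were Socs1, a suppressor of cytokine signalling, higher by 2.74, and Trim30a, which restrains NF-kB activation, higher by 3.11 on the log2 scale. The Socs1 call was kept in 7 of 8 fits with 1 tumor left out and the Trim30a call in 8.

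The cytosolic RNA sensors of the RIG-I-like family, which share ligands with Tlr3, were all called higher. Ddx58 (RIG-I) rose from 48.5 ± 7.33 to 293 ± 96.1 normalized CPM, a log2 fold change of 2.59 (edgeR adjusted p = 0.000962). Ifih1 (MDA5) rose by 3.38 and Dhx58 (LGP2) by 3.53 on the log2 scale, and each was called in all 8 fits with 1 tumor left out. The Tlr3 log2 fold change of 2.79 lay within the range of these genes, while that of Tlr7 lay below it.

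**Figure D4:**
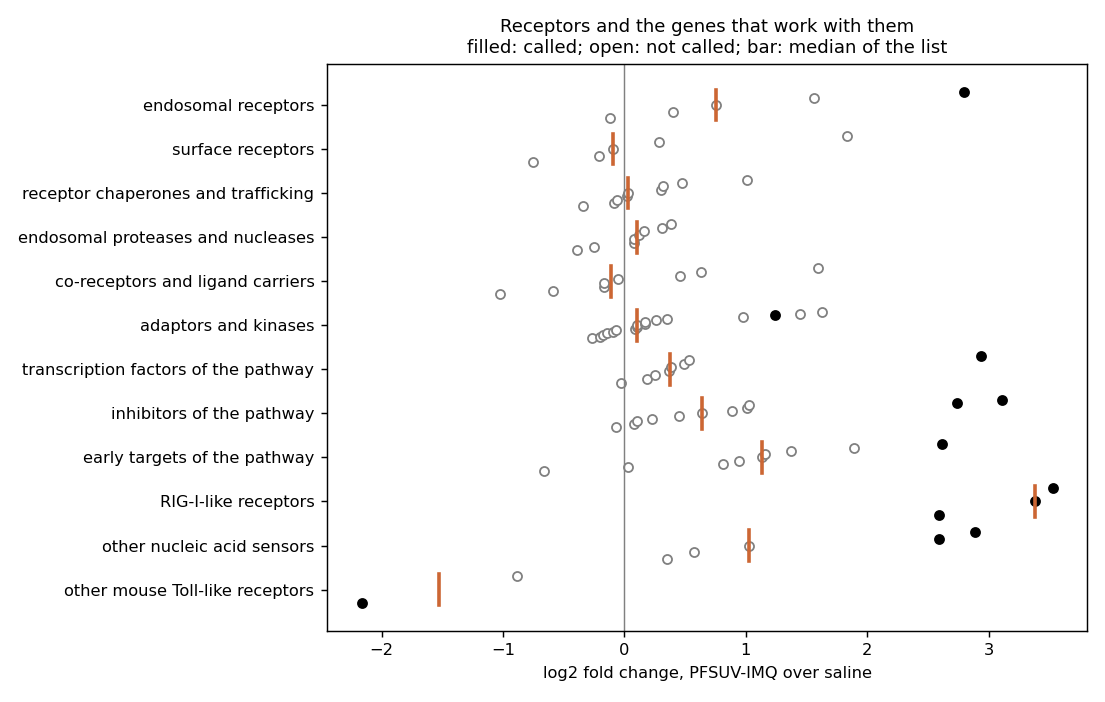
Log2 fold change (PFSUV-IMQ over saline) of each tested gene, grouped by list, with filled points for called genes and a bar for the list median. The RIG-I-like receptors have a median of 3.38, and the endosomal and surface receptors 0.75 and −0.09.

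For Tlr3 and Tlr7, the genes with the most similar pattern were found over 13101 genes, by the root mean square difference of centred log2 CPM over the 8 tumors. Nearest to Tlr3 were Samd9l (0.173), Oas3 (0.203) and Il15 (0.233). Nearest to Tlr7 were Clec4d (0.122), Nfkbie (0.130) and Il10ra (0.136). The points share library, depth and treatment, and the likeness is a description.

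Receptor levels in whole tumors depend on which cells they hold, and fewer cells of a type and less RNA per cell cannot be told apart. The summed normalized CPM of 10 macrophage markers were 1197 to 1681 in saline and 931 to 1808 in PFSUV-IMQ tumors, with replicate 2 the highest. The largest part was C1qa, at 357 ± 49.2 and 355 ± 126. Of the 10 macrophage markers 8 had a log2 fold change below 0 and 2 above 0. Among them 1, Fcgr1, was called higher (log2 fold change 1.32, edgeR adjusted p = 0.0290), a call kept in 3 of 8 fits with 1 tumor left out. The 6 Kupffer cell markers summed to 107 to 298 and 65.2 to 118. Of these 5 had a log2 fold change below 0 and 1, Timd4, above 0 (0.14). In saline tumors the largest part of the sum was Slc40a1, at 67.9 ± 41.2 against 20.9 ± 7.14 after PFSUV-IMQ, and it was not called (edgeR adjusted p = 0.0751). Vsig4, a receptor of resident macrophages, was called lower (log2 fold change −1.62, edgeR adjusted p = 0.0453). That call was kept in 1 of 8 fits with 1 tumor left out. The 8 plasmacytoid dendritic cell markers, a type rich in Tlr7 and Tlr9, summed to 125 to 200 and 170 to 273, but nearly all of this was Tcf4, a broadly expressed gene, at 144 ± 32.8 and 214 ± 38.2. Of the 5 tested, 4 had a log2 fold change above 0, and the exception was Siglech, at 3.67 ± 1.04 and 1.71 ± 0.977 (edgeR adjusted p = 0.271). None was called by edgeR, with Tcf4 higher and Siglech lower at an unadjusted p under 0.05. In PFSUV-IMQ replicate 2, the monocyte markers summed to 415, the neutrophil markers to 164 and the hepatocyte markers to 38462, the highest of the group in each list. Saline replicate 4 had a similar hepatocyte sum, 37009. The mitochondrial share of counts in PFSUV-IMQ replicate 2, 6.65%, was also the highest. The part of these values in the receptor results was not tested.

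**Figure D5:**
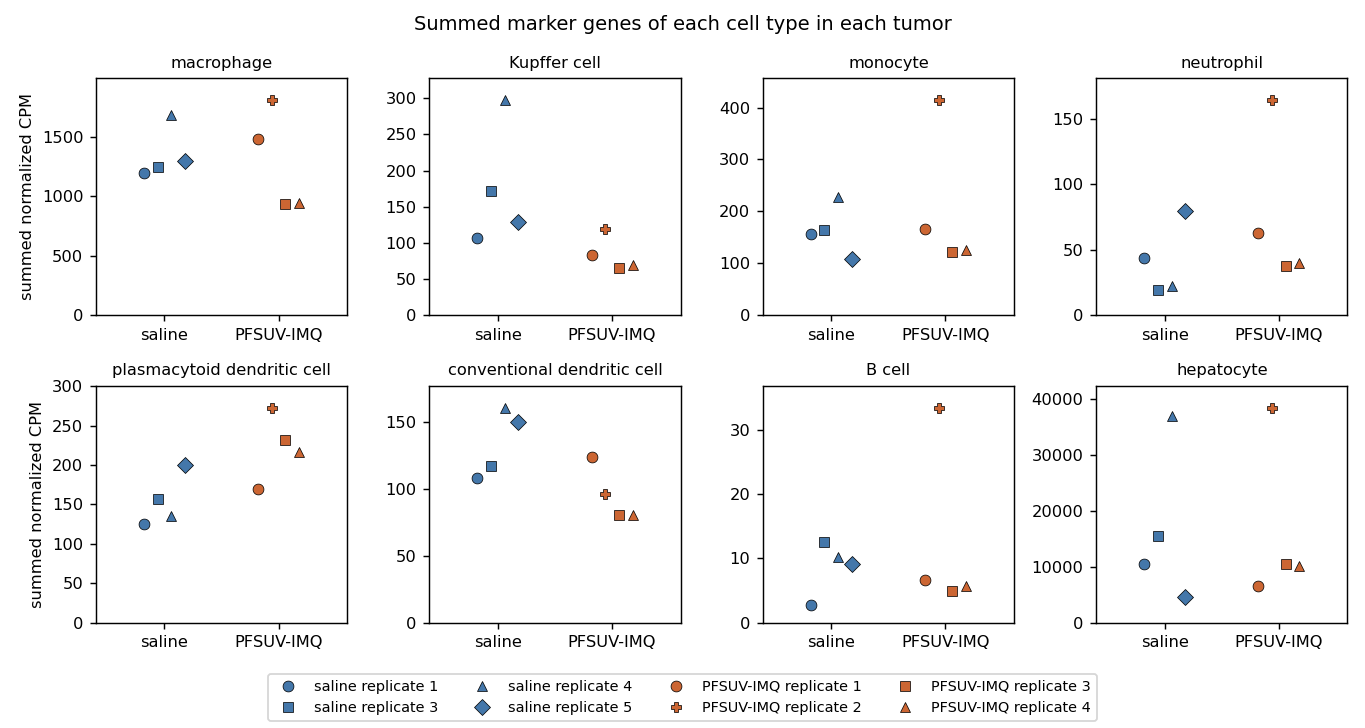
Summed normalized CPM of 8 cell type marker lists in each tumor, 1 panel per list with its own axis from 0. Kupffer cell markers sum to 107 to 298 in saline and 65.2 to 118 in PFSUV-IMQ tumors, and the monocyte sum of 415 belongs to PFSUV-IMQ replicate 2.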

How the data were processed

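RNA from 8 tumors had been sequenced as KAPA mRNA HyperPrep libraries. The authors deposited whole-number counts per gene, the input of every test. They also deposited a table of signal values, the counts divided by 1 size factor per tumor, used here only for gene symbols. The study's methods name TopHat and HTSeq, whereas the submitters' processing notes list Trimmomatic 0.38, HISAT2 2.1.0 and featureCounts 2.0.0, so which tools made the counts is unclear. Build and strand setting were not given in the sources used here. All 55536 identifiers are in GENCODE M21 (GRCm38), which gave the coordinates. Without a stated strand setting, how reads of overlapping genes were assigned, or whether they were counted, is not known.

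Tests used edgeR 4.0.16 in R 4.3.3 (TMM, default filter, quasi-likelihood test, Benjamini-Hochberg over 15998 genes), checked on simulated counts. Log2 CPM used a prior count of 2. The receptors, the gene lists and the rule for naming genes (all 10 receptors and fixed pathway genes by role) were chosen with earlier results of these data known. Alternatives included DESeq2 1.42.0, the exact test, no filter, a replicate term and leaving out each tumor.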

Additional observations from a re-analysis of the deposited data

Results flagged for a closer look

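In 15 of the 84 groups of 4 tumors examined, 1 tumor lay far from the other 3 by Dixon's criterion, which chance meets in about 1 in 20 groups, and 10 of the 15 were PFSUV-IMQ replicate 2. Among the receptors, Tlr2 was 207 normalized CPM in PFSUV-IMQ replicate 2 against 51.5 to 55.5 in the others. Tlr9 was 4.04 in saline replicate 4 against 2.23 to 2.32. Tlr6 was 9.15 in PFSUV-IMQ replicate 3, the lowest of its group. The mean log2 CPM of the surface receptors was 3.02 in saline replicate 5, below 3.58 to 3.67 in the others.

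Among the pathway genes PFSUV-IMQ replicate 2 was the highest of its group by this criterion for Dhx58 (210.2 normalized CPM), Irf7 (848), Lbp (214), Myd88 (114), Socs1 (102) and Zbp1 (590). Ticam1 was 29.1 in PFSUV-IMQ replicate 1, and Ifih1 was 21.2 in saline replicate 5, the lowest of its group. In PFSUV-IMQ replicate 2 the summed markers of monocytes (415), B cells (33.5) and hepatocytes (38462) also stood apart from the rest of its group. The hepatocyte sum of saline replicate 4 was similar, at 37009.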

How the results depend on the processing

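The call of Tlr3 was kept under every alternative run, and Tlr7, Tlr8, Tlr13, Tlr1, Tlr4, Tlr5 and Tlr6 were called under none. With 4 tumors a group and 1 tumor standing apart, Tlr2 and Tlr9 lay near the threshold, and the cause was not tested. Receptors called higher numbered 3 with no filter on low counts, by DESeq2's Wald test and by edgeR's exact test (2 endosomal and 1 surface), and 1 to 2 with 1 tumor left out (0 to 1 surface). Tlr2 was called with no filter (log2 fold change 1.83, edgeR adjusted p = 0.00896) and Tlr9 likewise (1.56, adjusted p = 0.0344). Calls also rose over all tested genes, against 362 higher and 32 lower in the main fit. They were 619 higher and 133 lower by DESeq2, 541 and 92 by the exact test, and 491 and 63 with no filter. Leaving out 1 tumor gave 197 to 375 higher and 8 to 38 lower, with the fewest higher without saline replicate 1 and the fewest lower without PFSUV-IMQ replicate 4. With Tlr11 and Tlr12 among the endosomal receptors, an alternative chosen after seeing the data, the class difference was 0.12. The sign turned for Tlr8 without PFSUV-IMQ replicate 2 (−0.11, with 0.73 the highest with 1 tumor left out), for Tlr13 without saline replicate 4 (0.072, with −0.38 the lowest) or PFSUV-IMQ replicate 3 (0.03) or 4 (0.04), and for Tlr4 without saline replicate 1 (0.24, with −0.29 the lowest) or PFSUV-IMQ replicate 3 (0.01). Per kilobase of its longest transcript, Tlr4 was 10.1 after PFSUV-IMQ.

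The labels do not say whether equal numbers pair the tumors. Deviations of same-numbered tumors correlated at 0.294, −0.268 and −0.316 for replicates 1, 3 and 4. These lay within the range of different-numbered tumors, −0.637 to 0.683, and so few values cannot settle the question. With a replicate block, 2 receptors were called higher, 1 of them a surface receptor, Tlr2 (log2 fold change 1.03, edgeR adjusted p = 0.0162). Of all genes 416 were called higher and 267 lower with this block, and 2 pathway genes were called lower. The endosomal median was 0.087, and Tlr8 was −0.56. Numbers 2 and 5 each occur in 1 group only, so PFSUV-IMQ replicate 2 and saline replicate 5 add nothing to the comparison of groups in that fit.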

Other observations

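Of 9 tested early targets of Toll-like receptor signalling, such as cytokines and chemokines, 1 was called higher, with a median log2 fold change of 1.13. That gene, Il6, was at 0.567 ± 0.228 normalized CPM in saline and 3.52 ± 2.52 in PFSUV-IMQ tumors (log2 fold change 2.61, edgeR adjusted p = 0.0374), and the call was kept in 1 of 8 fits with 1 tumor left out. Ccl4 was at 4.96 ± 1.63 and 18.5 ± 15.3 and Tnf at 3.04 ± 0.784 and 6.69 ± 6.20, neither called (edgeR adjusted p = 0.101 and 0.449). Ifnb1, the interferon beta gene, had at most 7 counts in a tumor and was not tested. All 5 other nucleic acid sensors had a log2 fold change above 0, and 2 were called higher. Zbp1, which binds Z-form nucleic acid, was higher by 2.89 and Eif2ak2 (PKR), which binds double-stranded RNA, by 2.59 on the log2 scale (edgeR adjusted p = 0.00424 and 0.000665).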
